A study of Homo sapiens with 2 samples.

Results

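The genes described here were 58 interferon-induced genes, interferon regulatory factors (IRFs) and interferon receptor genes taken from a list of gene names. The list was chosen with earlier results of these data known, the low reading of IFIT2 and the high one of DDX60 among them. A gene was read when at least 1 probe set of the array annotation was paired with it alone, which held for 57 of the 58 members, out of 19775 genes read in all. IFI30 had no probe set of its own in that annotation and was not analysed here, and DDX58, which encodes the RNA sensor RIG-I, was found under its newer symbol RIGI. The cells were SU-DHL-1, an established line from an anaplastic large cell lymphoma (ALCL), a T-cell tumour, with the NPM1-ALK fusion. They were given an siRNA directed at HLX, a homeobox gene of the NKL class (siHLX), or a negative control siRNA (siCTR), both by electroporation, and total RNA of each was hybridised to 1 Affymetrix HG-U133 Plus 2.0 array. With 1 array per siRNA and 1 cell line error between replicates could not be measured, no test was run, and each value describes this pair of arrays.

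Interferons are cytokines that alert cells to virus. Type I interferons bind IFNAR1 and IFNAR2, interferon gamma binds IFNGR1 and IFNGR2, and the receptors signal through JAK kinases and STAT factors. STAT complexes, 1 of them containing IRF9, then activate a shared set of antiviral genes through the interferon-stimulated response element (ISRE) or the gamma-activated site (GAS) in their promoters. IRFs act both before this step, by switching on interferon genes, and after it. In T cells interferon gamma is a product of type 1 effector cells as well as a signal.

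Values were log2 intensities after RMA background correction and quantile normalisation, and each difference is the siHLX value minus the siCTR value. Each gene was read by its brightest probe set, and was counted when the mean of that probe set over both arrays reached 4.865, the median of all probe sets that were not controls. HLX itself read 7.70 on the siHLX array and 8.15 on the siCTR array, a difference of -0.45, or 73.2% of the control level, and 1.59% of probe sets of a similar level (within 0.5 log2 units) were as low or lower. The median difference of all 12135 genes above the threshold was -0.01. Scaling the arrays to equal poly-A spike controls instead moved that median to 0.28. The HLX difference, read from its only probe set, then stood at -0.16. All differences given here, that of HLX included, are therefore relative to the bulk of genes. Of the ALCL markers 9 of 9 lay above the threshold, whereas epithelial markers did so in 0 of 3 cases. Markers of plasmacytoid dendritic cells, a main source of interferon, did so in 2 of 4. These were IL3RA (5.31 with siHLX and 5.37 with siCTR) and TCF4 (10.79 with siHLX and 10.57 with siCTR), while CLEC4C and LILRA4 lay below it. Of the T cell receptor genes read, CD3G lay below the threshold. CD3D (10.98 with siHLX and 10.73 with siCTR) and CD3E (5.68 with siHLX and 5.87 with siCTR) lay above it. Markers of monocytes lay above the threshold in 2 of 5 cases. These were CSF1R, with 6.23 on the siHLX array and 5.79 on the siCTR array, and CD163, with 9.43 on the siHLX array and 9.31 on the siCTR array. Of 4 B cell markers read, CD79A (6.81 with siHLX and 6.57 with siCTR) and PAX5 (5.04 with siHLX and 5.37 with siCTR) did so. The part of these genes in the results was not tested.

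A promoter element of the interferon response was found in many of the members, though not in all. RefSeq promoters (GRCh38.p14, 250 bases before to 50 bases after each start site) were found for 44 of the 58 members. The ISRE was searched as GAAANNGAAA on both strands, and 26 of the 44 members (59.1%) held at least 1 match. Among those above the level threshold it was 19 of 35 members (54.3%), against 3.82% of 9825 genes. Counted by promoter, matches lay in 31 of 65 member promoters (47.7%) and in 3.57% of all 35116 promoters. The GAS, searched as TTCNNNGAA, which reads the same on both strands and can overlap an ISRE match, was held by 13 of the 44 members (29.5%), and above the threshold by 10 of 35 members (28.6%), against 8.33% of genes. All 3 IFIT genes with a promoter entry held an ISRE match, as did 6 of 9 IFI and IFITM genes and 4 of 5 PARP and SAMD9 genes, while 0 of 4 IRF genes and 0 of 3 receptor genes did. The 160 bases before the start site are printed for 7 members to show this element beside genes that read higher, lower or little different on the siHLX array. Each is written 5′ to 3′ along the gene with its ISRE matches in capitals:
DDX60 (chr4:168318753-168318912, minus strand): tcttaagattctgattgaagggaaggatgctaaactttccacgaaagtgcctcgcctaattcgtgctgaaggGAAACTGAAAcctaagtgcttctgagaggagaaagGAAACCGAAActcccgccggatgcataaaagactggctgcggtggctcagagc
GBP1 (chr1:89065209-89065368, minus strand): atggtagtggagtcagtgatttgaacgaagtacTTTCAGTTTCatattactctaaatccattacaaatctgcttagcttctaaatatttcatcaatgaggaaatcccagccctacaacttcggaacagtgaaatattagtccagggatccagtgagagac
SAMD9 (chr7:93117980-93118139, minus strand): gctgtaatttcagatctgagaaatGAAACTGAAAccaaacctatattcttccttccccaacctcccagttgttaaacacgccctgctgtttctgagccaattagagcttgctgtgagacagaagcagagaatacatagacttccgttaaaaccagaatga
IFI6 (chr1:27672193-27672352, minus strand): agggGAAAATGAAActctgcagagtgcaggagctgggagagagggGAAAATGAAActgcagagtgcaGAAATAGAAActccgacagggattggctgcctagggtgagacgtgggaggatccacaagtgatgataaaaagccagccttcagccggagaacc
IFIT3 (chr10:89327837-89327996, plus strand): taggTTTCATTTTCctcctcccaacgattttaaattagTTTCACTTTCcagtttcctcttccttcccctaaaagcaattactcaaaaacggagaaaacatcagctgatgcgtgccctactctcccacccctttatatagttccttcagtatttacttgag
IFIT1 (chr10:89392463-89392622, plus strand): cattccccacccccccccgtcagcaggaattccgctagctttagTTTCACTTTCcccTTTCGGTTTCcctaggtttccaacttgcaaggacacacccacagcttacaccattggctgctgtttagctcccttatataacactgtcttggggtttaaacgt
IFIT5 (chr10:89414408-89414567, plus strand): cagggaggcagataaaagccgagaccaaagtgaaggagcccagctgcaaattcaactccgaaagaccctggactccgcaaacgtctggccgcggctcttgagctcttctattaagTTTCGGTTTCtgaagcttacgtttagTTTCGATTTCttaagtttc

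IFI6 carried 3 matches within these bases, DDX60, IFIT1 and IFIT3 carried 2 each, and GBP1 and SAMD9 carried 1 each. IFIT5 carried 2 and a match across its start site in addition. A match is a description of these letters, and IFIT2, the member farthest from 0, had no promoter entry.

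**Figure D1:**
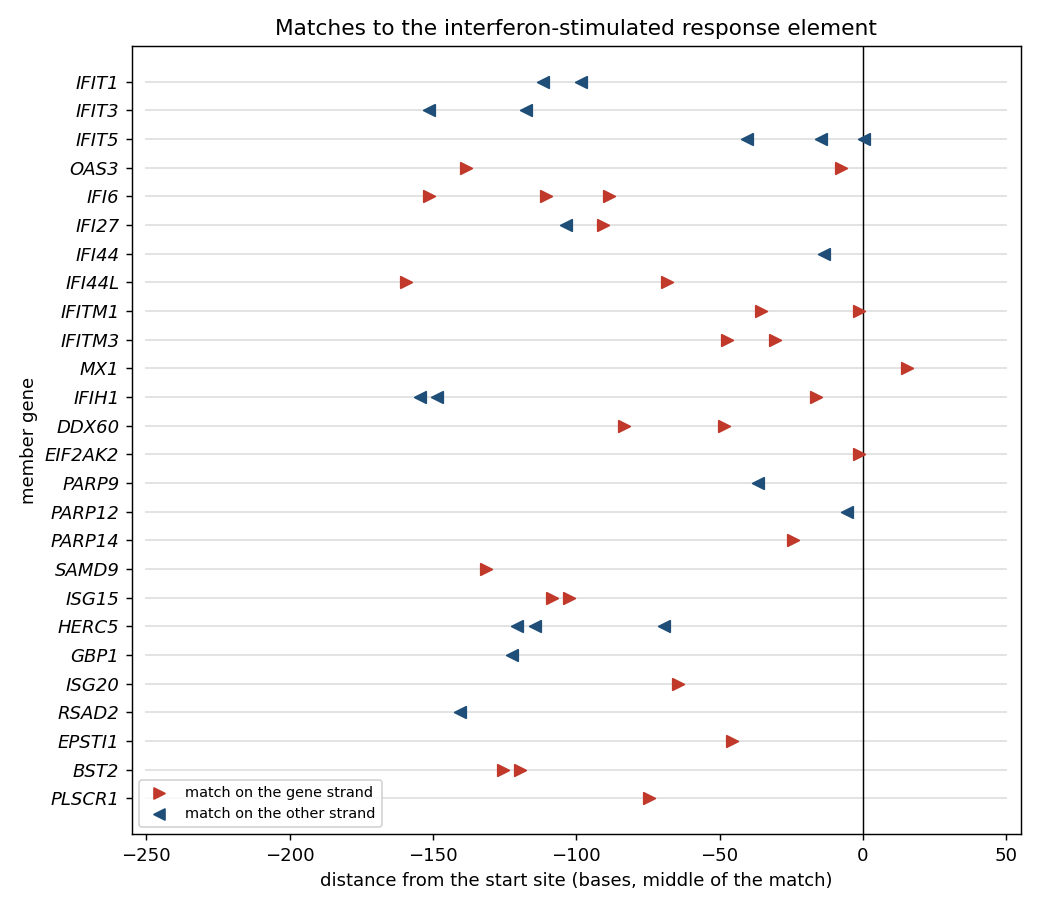
Positions of ISRE matches (x axis, distance of the middle of the match from the start site in bases) in the promoters of 26 member genes (y axis); triangles pointing right are matches on the gene strand and those pointing left are on the other strand. For genes with several start sites the first one with a match is drawn, and only MX1 has its drawn match wholly after the start site.

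Most members read nearly alike on both arrays. Of the 57 members read, 48 lay above the threshold (84.2%, against 61.4% of all genes), and 30 of these 48 read higher with siHLX (62.5%) and 18 read lower, the median being 0.03. Among all genes above the threshold 47.4% read higher and 50.1% lower. Scaled to equal poly-A spike controls, 43 members were higher and 5 lower (IFIT2, IFI6, DDX58, IFNAR1 and IFNAR2), beside 88.8% of all genes higher. Every other member above the threshold whose brightest probe set was lower turned its sign under that scaling. Only DDX60 and GBP1 were at least 1.5-fold higher, 4.17% of the 48 members against 2.5% of all genes, and only IFIT2 was at least 1.5-fold lower, 2.08% against 2.55%. In either direction these were 3 of 48 members, against 5.05% of all genes, and shares of so few members lie near those of all genes. The readings of IFIT2 and DDX60 were known when the members were chosen, so the shares given for them here and below are descriptions only. No member was 2-fold higher or 2-fold lower, where 0.453% and 0.387% of all genes were. Differences of at most 0.25 in size were seen for 35 members (72.9%), and for 74.1% of all genes.

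**Figure D2:**
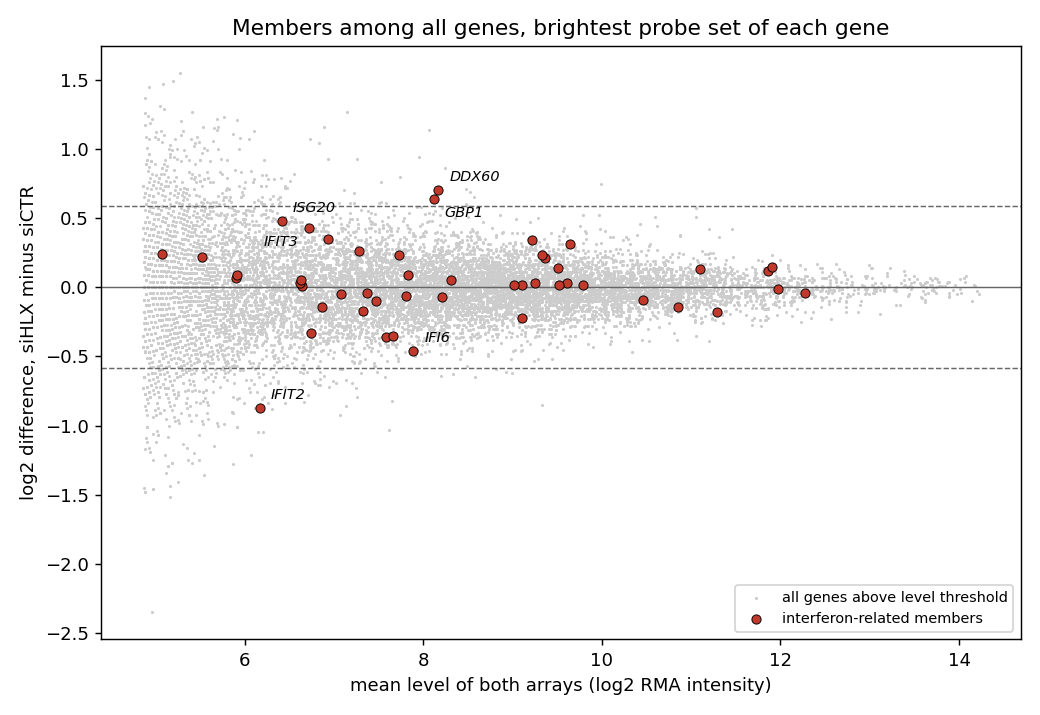
Difference of siHLX minus siCTR on the log2 scale (y axis) by mean level (x axis, log2 RMA intensity averaged over the arrays); grey points are the 12135 genes above the level threshold, red points the 48 members, and dashed lines mark 1.5-fold. DDX60 at 0.70 and GBP1 at 0.64 lie above the upper line and IFIT2 at -0.87 below the lower one.

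Members with several probe sets gave a measure of technical spread. Above the threshold, 21 members had 2 or more probe sets. Of these, 8 read higher on all of them (IFIT3, IFI16, SAMD9, GBP1, GBP2, IRF5, ISG20 and XAF1) and 1 read lower on all, which was IFIT2. The same sign on all was thus seen in 42.9% of these members and in 37.1% of all such genes. All probe sets higher was the case in 38.1% of these members and in 17.7% of all such genes, and all lower in 4.76% and 19.3%. The SD among probe sets of 1 gene, pooled over genes and technical in kind, was 0.24 for members and 0.27 for all genes.

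The IFIT family split. IFIT proteins bind viral RNA and hold back its translation, and their genes form a cluster on chromosome 10. IFIT2 was lower on both of its probe sets, with 5.74 on the siHLX array and 6.61 on the siCTR array for the brighter one, and 4.74 with siHLX against 5.63 with siCTR for the other. The differences of -0.87 and -0.89 leave 54.7% and 54.0% of the control level. Of probe sets of similar level, 0.817% were as low as the brighter and 2.78% as low as the dimmer one. IFIT2 had a difference of -0.58, just short of 1.5-fold, when the arrays were scaled to equal poly-A spike controls. IFIT3, whose protein pairs with those of IFIT1 and IFIT2 and whose gene is the direct neighbour of IFIT2, read 6.94 with siHLX and 6.51 with siCTR, a difference of 0.43, and 0.11 on its second probe set. The 2 neighbours therefore lay on opposite sides of 0. IFIT5, which binds RNA with a terminal triphosphate, had -0.05 and 0.29. IFIT1 was below the threshold at 4.60 with siHLX and 4.50 with siCTR.

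OAS enzymes make oligoadenylates in response to double-stranded RNA, which activate RNase L. OAS3 read 5.20 with siHLX and 4.96 with siCTR, OAS1 read 5.63 with siHLX and 5.41 with siCTR, and OASL, a relative without this enzyme activity, read 5.94 with siHLX and 5.87 with siCTR. All 3 members above the threshold were higher on their brightest probe sets, by 0.24, 0.22 and 0.07, at low levels where genes varied most. Of all genes above the threshold, 47.4% were higher by any amount. The second probe set of OASL had -0.21, and the mean over its probe sets was -0.07. OAS2 stayed below the threshold with -0.20 on its brightest probe set and -0.76 and 0.05 on the dimmer ones.

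The IFI and IFITM genes were mixed, with 3 members higher and 3 lower among the 6 above the threshold. IFI6, a small membrane protein that protects mitochondria, read 7.66 with siHLX and 8.12 with siCTR. This difference of -0.46 came from its only probe set, and 1.36% of probe sets of similar level were as low. IFI16, a nuclear DNA sensor, was higher on its 3 probe sets, by 0.12, 0.08 and 0.37, with 11.92 on the siHLX array and 11.80 on the siCTR array for the brightest. IFITM1, IFITM2 and IFITM3 encode closely related membrane proteins that block virus entry, and their genes lie side by side on chromosome 11. They had differences of -0.01, 0.15 and -0.18, and IFITM2, the highest of the family, read 11.98 with siHLX and 11.83 with siCTR. All 3 were read by probe sets with the suffix _s_at or _x_at, which can bind transcripts of related genes, so these readings cannot be assigned to 1 gene with certainty. IFI35 had 0.02, and IFI27, IFI44 and IFI44L were below the threshold. The MX genes encode dynamin-like GTPases that trap viral particles, and MX2 read 7.41 with siHLX and 7.15 with siCTR, while MX1 was below the threshold at 3.44 with siHLX and 3.74 with siCTR.

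Among the RNA sensors, DDX60 stood highest of all members. This helicase, reported to aid RIG-I, read 8.52 on the siHLX array and 7.82 on the siCTR array, a difference of 0.70, and 0.195% of probe sets of similar level were as high. It had a single probe set, of the _s_at type, and so dropped out where such probe sets were left out. Its close relative and neighbour on chromosome 4, DDX60L, which was looked at after these values had been seen, had 0.08 on its brighter and -0.29 on its dimmer probe set. IFIH1, the sensor of long double-stranded RNA, read 7.84 with siHLX and 7.61 with siCTR. For DDX58 the probe sets disagreed more than for any other member, with 6.58, 6.51 and 5.94 on the siHLX array and 6.91, 5.96 and 5.99 on the siCTR array. The differences were -0.33, 0.55 and -0.05, so its direction was not settled. DHX58, a regulator of both sensors, had 0.01. Both enzymes that act on double-stranded RNA were higher by little. ADAR, which edits adenosine to inosine, read 11.16 with siHLX and 11.03 with siCTR. EIF2AK2, the kinase that halts translation, read 9.58 with siHLX and 9.44 with siCTR on its brightest probe set, a difference of 0.14, and had -0.12 and 0.42 on the others.

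SAMD9 and SAMD9L, neighbouring genes on chromosome 7 that restrict poxviruses and cell growth, gave readings of different size. SAMD9 read 9.80 with siHLX and 9.49 with siCTR on 1 probe set, and 8.61 with siHLX and 8.04 with siCTR on the other. The differences were 0.31 and 0.57, averaging 0.44 (SD 0.18, 2 probe sets). Of probe sets of similar level, 2.31% and 0.569% were as high. SAMD9L had 0.02, 0.13 and -0.05. The PARP genes of this set encode ADP-ribosyltransferases induced by interferon, and PARP9 read 9.00 with siHLX and 9.22 with siCTR. Its probe sets had -0.22 and 0.09, PARP14 -0.07 and PARP12 0.05.

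The guanylate-binding proteins GBP1 and GBP2 are GTPases that attack intracellular microbes and are strongly induced by interferon gamma. GBP1 was higher on all 4 of its probe sets. With siHLX they read 8.44, 7.72, 7.33 and 3.49, against 7.80, 7.06, 6.91 and 3.27 with siCTR. The 3 above the threshold averaged 0.57 (SD 0.13), short of 1.5-fold (0.585 on the log2 scale). Only 0.416% of probe sets of similar level were as high as the brightest. GBP2, the next gene on chromosome 1, was higher on both probe sets with a smaller size. It read 9.44 and 6.86 with siHLX, against 9.21 and 6.68 with siCTR, differences of 0.23 and 0.18.

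**Figure D3:**
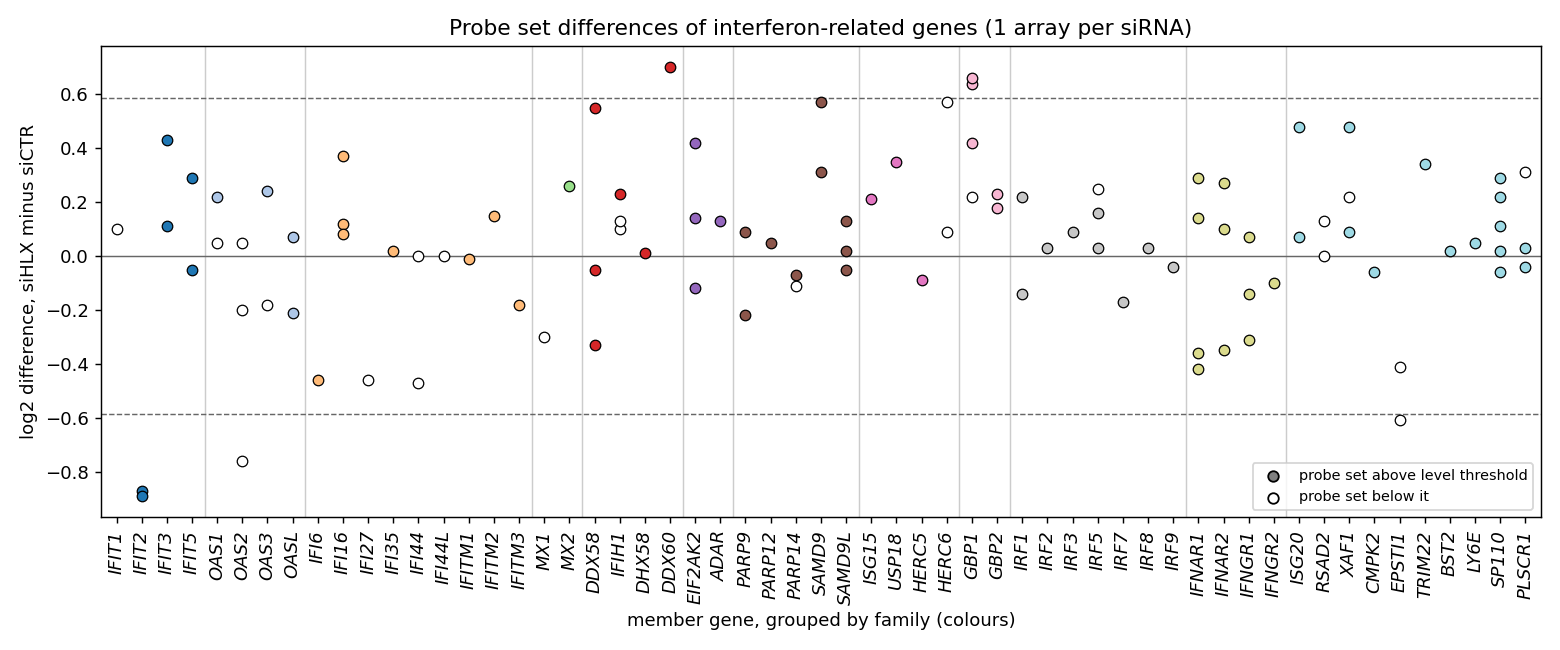
Difference of siHLX minus siCTR on the log2 scale (y axis) for each of the 105 probe sets of the 57 members read (x axis, grouped and coloured by family); filled circles lie above the level threshold, open circles below it, and dashed lines mark 1.5-fold. Both probe sets of IFIT2 lie at the bottom, those of GBP1 above 0, and those of DDX58 on both sides of 0.

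The ISG15 system attaches a ubiquitin-like protein to other proteins. ISG15 itself read 9.47 with siHLX and 9.26 with siCTR. USP18, which removes ISG15 and dampens signalling from IFNAR2, read 7.11 with siHLX and 6.76 with siCTR, a difference of 0.35. HERC5, the ligase that attaches ISG15, read 10.42 with siHLX and 10.51 with siCTR. HERC6, its neighbour on chromosome 4, was just below the threshold with 5.12 on the siHLX array and 4.55 on the siCTR array. Other effectors were higher in 6 of 8 cases, and 47.4% of all genes above the threshold were higher by any amount. The median of these 8 members was 0.035. ISG20, an RNA exonuclease, read 6.66 with siHLX and 6.18 with siCTR, a difference of 0.48, and had 0.07 on the dimmer probe set. XAF1, a partner of the apoptosis inhibitor XIAP, had 0.09 and 0.48 on its brighter pair. TRIM22, an antiviral ubiquitin ligase, read 9.39 with siHLX and 9.05 with siCTR. SP110, a nuclear body protein, ranged from -0.06 to 0.29 over 5 probe sets. The other members of this group lay close to 0, with LY6E at 0.05, BST2, which tethers virus to the cell, at 0.02, the scramblase gene PLSCR1 at -0.04 and CMPK2, a mitochondrial nucleotide kinase gene, at -0.06, with 7.78 on the siHLX array and 7.84 on the siCTR array. RSAD2, which encodes viperin, and EPSTI1 were below the threshold.

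The IRF factors differed little between the arrays. All 7 lay above the threshold, and their brightest probe sets ranged from -0.17 for IRF7 to 0.09 for IRF3, with a median of 0.03. IRF3 and IRF7, which switch on interferon genes, read 7.87 and 7.24 with siHLX, against 7.78 and 7.41 with siCTR. IRF1, an activator of genes induced by interferon gamma, had -0.14 and 0.22, and its antagonist IRF2 had 0.03. IRF5 had 0.03 and 0.16 above the threshold, IRF8, a factor of myeloid and B cells, had 0.03, and IRF9, part of the type I interferon complex, had -0.04.

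The receptor genes were the only family of at least 3 members with every brightest probe set lower. IFNAR1 read 7.40 with siHLX and 7.76 with siCTR, and IFNAR2 read 7.49 with siHLX and 7.84 with siCTR. IFNGR1 read 10.78 with siHLX and 10.92 with siCTR, and IFNGR2 read 7.42 with siHLX and 7.52 with siCTR. Their median was -0.24, and 50.1% of all genes were lower by any amount. The other probe sets lay on both sides of 0. IFNAR1 had 0.14, -0.42 and 0.29 on them, IFNAR2 had 0.10 and 0.27, and IFNGR1 had -0.31 and 0.07. The mean over probe sets was -0.09 for IFNAR1, 0.01 for IFNAR2 and -0.13 for IFNGR1. The brightest probe set of IFNAR2 was of the _x_at type and that of IFNGR1 of the _s_at type. With such probe sets left out, IFNAR2 had 0.10, IFNGR1 had 0.07 and the family median was -0.015. Scaled to equal poly-A spike controls, IFNAR1 and IFNAR2 stood at -0.07 and -0.06 and both interferon gamma receptor genes above 0.

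**Figure D4:**
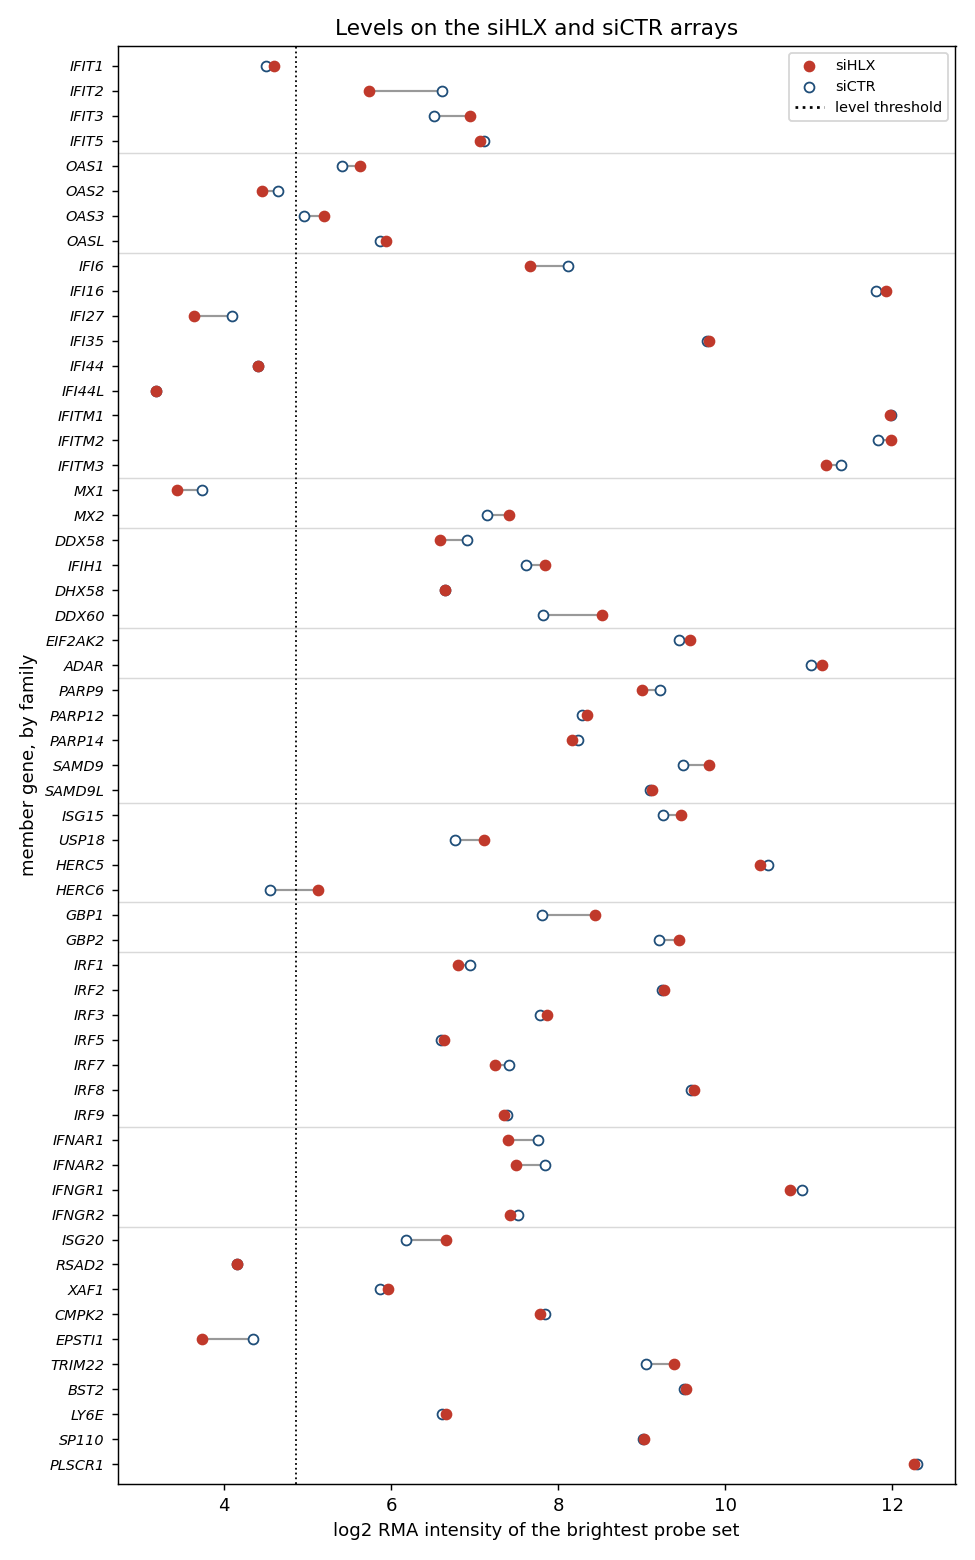
Log2 RMA intensity of the brightest probe set (x axis) of each member (y axis, by family) on the siHLX array (filled red circles) and the siCTR array (open blue circles); the dotted line is the level threshold of 4.865. The pairs of most members nearly coincide, and the widest gap above the threshold is that of IFIT2, with 5.74 on the siHLX array and 6.61 on the siCTR array.

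Members with and without an ISRE match had similar counts in each direction. Of the 19 members above the threshold with a match, 11 were higher and 8 lower (median 0.05), and of the 16 without a match, 9 were higher and 7 lower (median 0.02). Among all 375 genes above the threshold with a match, 185 were higher and 179 lower (median 0.00). Of the 19 members with a match, 2 were at least 1.5-fold higher (DDX60 and GBP1) and 0 lower, and of the 16 without, 0 were higher or lower by that much. Among all genes, 12 of the 375 with a match and 206 of 9450 without were at least 1.5-fold higher. At least 1.5-fold lower were 5 of the 375 and 218 of the 9450. IFIT2, which had no promoter entry, was in neither group.

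The interferon genes themselves mostly lay below the level threshold. Of 20 interferon genes listed, 18 had a probe set of their own. Of these, 17 lay below the threshold, whereas 61.4% of all genes lay above it. The exception was IFNA17, with 5.20 on the siHLX array and 5.68 on the siCTR array, on a probe set of the _x_at type. The interferon gamma gene IFNG read 3.59 with siHLX and 3.44 with siCTR, and IFNB1 read 3.22 with siHLX and 3.36 with siCTR. Of the kinases, JAK1 read 9.78 with siHLX and 9.88 with siCTR on its brightest probe set, and had 0.31, 0.12, 0.10 and 0.10 on the others, the last pair below the threshold. TYK2 read 8.59 with siHLX and 8.75 with siCTR, and JAK2, the kinase bound to IFNGR2, had -0.23 on its only probe set above the threshold. A dimmer JAK2 probe set below the threshold read 4.10 with siHLX and 5.12 with siCTR, a difference of -1.02, and 1.91% of probe sets of similar level were as low, while the third had -0.23. Over the whole list of 81 further pathway genes, 44 were above the threshold, with 16 higher, 26 lower and a median of -0.04. None was at least 1.5-fold higher, where 2.5% of all genes were, and 3 were at least 1.5-fold lower, 6.82% of the 44 against 2.55% of all genes. These were CIITA, the master regulator of HLA class II genes, at -0.85, APOL6 at -0.79 and the tryptophan-degrading enzyme gene IDO1 at -0.65. CIITA and IDO1 were dim, at 4.78 and 5.27 with siHLX and 5.63 and 5.92 with siCTR. The probe sets of CIITA below the threshold had -0.83 and 0.46. APOL6 read 6.86 with siHLX and 7.65 with siCTR, and its second probe set above the threshold had -0.23.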

How the data were processed

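The authors deposited 1 log2 intensity for each probe set of each of 2 arrays, made with RMA background correction and quantile normalisation in R. RMA, limma and affy are named by the submitters' processing notes. Their versions are not given in the sources used here. Quantile normalisation gives both arrays nearly the same distribution, and sorted values differed by at most 0.06. Leaving out controls, 41091 of 54613 probe sets had 1 gene, 1801 with several and 11721 were not named in the annotation used here. A gene was represented by its brightest probe set, with a mean of at least 4.865, and probe sets with several genes named none. Differences, counts and medians were computed in Python 3.11.15 with pandas 2.3.3, and the steps were checked on simulated data. Members were named if they passed 1.5-fold, were the highest or lowest of their family or had probe sets that disagreed, and the remaining ones were given briefly. Members and lists were chosen with earlier results of these data known, the low reading of IFIT2 and the high one of DDX60 among them. Alternatives were median centring, lowess (fraction 0.2), poly-A scaling, other probe set rules and other thresholds.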

Additional observations from a re-analysis of the deposited data

How the results depend on the processing

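With 1 array per siRNA no error could be estimated, and the number of arrays limits the precision. No paired analysis was possible because each group held 1 array. Median centring and lowess moved 0 of 73 results. A median or difference was called moved when it shifted by at least the spread between probe sets, and a count or share when it changed by more than 1.5-fold. Scaling to equal poly-A spike controls shifted all differences alike: the member median was 0.32, with 5 members lower and 7 past 1.5-fold upwards and 0 downwards, and relative to all genes the median stayed at 0.04. Under it the family medians were 0.24 (IFIT), 0.51 (OAS), 0.29 (IFI and IFITM), 0.55 (MX), 0.41 (RNA sensors), 0.42 (EIF2AK2 and ADAR), 0.31 (PARP and SAMD9), 0.50 (ISG15 system), 0.72 (GBP), 0.32 (IRF), 0.044 (receptors) and 0.32 (other effectors). The further pathway genes then had a median of 0.25, with 39 higher and 5 lower. Without _s_at or _x_at probe sets 34 members were left, with 11 lower and 1 at least 1.5-fold higher, the IFI and IFITM median was -0.46 from 1 gene, IFI6, and 10 pathway genes were higher. With the mean of all probe sets 1 member was at least 1.5-fold higher. Without a level threshold 2 members were at least 1.5-fold lower, the MX median was -0.02 and 28 pathway genes were higher. At the 75th percentile of level 0 members were at least 1.5-fold lower, since IFIT2 was left out, and the sensor median was 0.46. With a 2-fold limit 0 members were higher and 0 lower.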

Other observations

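A pair of probe sets was assigned to a member together with another gene and took no part in the counts. The probe set shared by IFITM2 and IFITM1 read 11.97 with siHLX and 12.01 with siCTR. The one shared by RNF31 and IRF9 read 6.25 with siHLX and 6.61 with siCTR, a difference of -0.36, while the probe set of IRF9 alone had -0.04.

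The spread of the members, read by their brightest probe sets, was compared with that of all genes of similar level. At levels of 8 to 10 the SD of the difference was 0.25 over 16 members and 0.17 over 3842 genes, and at levels of 6 to 8 it was 0.33 over 20 members and 0.26 over 3617 genes. Members above 10 had an SD of 0.13 (8 members) and all genes 0.12. At levels of 4.865 to 6 the order was the other way, with an SD of 0.09 over 4 members and 0.44 over 2776 genes. These SDs include the members past 1.5-fold, with DDX60 and GBP1 in the range of 8 to 10 and IFIT2 in that of 6 to 8. Members were chosen with the readings of IFIT2 and DDX60 known, so the wider spread of members there is not a separate result.

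Of the brightest probe sets below the level threshold, that of EPSTI1 read 3.74 with siHLX and 4.35 with siCTR, and that of IFI27 read 3.64 with siHLX and 4.10 with siCTR. IFI44, IFI44L and RSAD2 had differences of exactly 0.0. Among the guanylate-binding protein genes that were no members, GBP3 read 4.78 with siHLX and 3.59 with siCTR. The brighter probe set of GBP5 read 3.94 with siHLX and 3.27 with siCTR, and its dimmer one had a difference of 0.0. GBP4 had differences of 0.15 and 0.09. All of these lay below the threshold, where values scatter widely.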
